A study of Mus musculus with 2 samples.

Results

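The miR-17-92 cluster is a set of 6 microRNA hairpins that lie one after another on a single host transcript. Its members were taken by symbol, as Mir17, Mir18, Mir19a, Mir20a, Mir19b-1 and Mir92-1, and all 6 were found among the 1973 genes counted. Mir18 and Mir92-1 make the microRNAs usually written miR-18a and miR-92a. Hindbrain of B6NCrl mouse embryos at day 16.5, males and females pooled and healthy per the labels, gave 2 libraries of RNA under 30 nt, numbered as biological replicates 1 and 2. The labels give 37 embryos for the replicate 2 pool. No treatment or genotype was compared, so the questions that the design allows are how abundant each hairpin was, how the hairpins stood to one another and how far both libraries gave the same picture.

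A microRNA hairpin is cut out of its primary transcript by Drosha and trimmed by Dicer, and 1 of its arms is loaded into Argonaute. The loaded strand then finds messenger RNAs mainly through its seed, bases 2 to 8. The miR-17-92 transcript is driven by MYC and E2F factors and is known for promoting proliferation and survival. Its products repress Cdkn1a and Bcl2l11 among other targets, and in hindbrain the cluster is known from granule neuron progenitors of the cerebellum and from medulloblastoma.

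The 6 hairpins carry 4 seeds, and their mature strands are shown because both the seed families and the loci that share a sequence decide how the counts can be read. The strand shown for each hairpin is the one usually loaded, and capitals mark the seed. The sequences are those of RefSeq on GRCm38.p6, and all 6 hairpins had an entry at the same position as in GENCODE.
miR-17-5p: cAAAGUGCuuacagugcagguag
miR-20a-5p: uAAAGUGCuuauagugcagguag
miR-18a-5p: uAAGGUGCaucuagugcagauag
miR-19a-3p: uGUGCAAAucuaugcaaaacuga
miR-19b-3p: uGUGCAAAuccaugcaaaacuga
miR-92a-3p: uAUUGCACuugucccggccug
Mir17 and Mir20a share 1 seed, Mir19a and Mir19b-1 share another, and Mir18 and Mir92-1 have a seed each. Counted from the 5′ end of miR-17-5p, miR-20a-5p differs by C1U and C12U. From the 5′ end of miR-19a-3p, miR-19b-3p differs by U11C alone. Neither set of changes touches the seed.

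The exact miR-19b-3p and miR-92a-3p sequences are each found in 1 further hairpin of the RefSeq table of 1005, Mir19b-2 and Mir92-2 of the X-linked paralogue cluster. The other 4 strands shown have no exact copy in another hairpin. The stretches around both copies are shown because reads that fit more than 1 place were not given to any gene. Capitals mark the bases at which the copies differ, and each stretch holds the mature strand with 6 bases on either side.
Mir19b-1: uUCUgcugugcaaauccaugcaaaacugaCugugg
Mir19b-2: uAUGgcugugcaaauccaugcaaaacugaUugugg
Mir92-1: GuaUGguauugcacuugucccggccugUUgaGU
Mir92-2: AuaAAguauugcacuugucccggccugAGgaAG
The copies of miR-19b-3p lie in an identical run of 25 bases, of which 2 precede the 23-base mature strand and 0 follow it. The copies of miR-92a-3p lie in an identical run of 22 bases, of which 1 precedes the 21-base mature strand. A read that stays inside such a run fits both loci. A read that reaches 1 base past the 3′ end fits only 1 of the 2 loci without a mismatch. Mir19b-1 and Mir92-1 counts therefore miss an unknown number of reads, and their levels are uncertain.

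All 6 hairpins lie on the plus strand of chromosome 14 between 115043671 and 115044506 (mm10), a span of 836 bases. GENCODE M21 places them in exon 2 of the long noncoding host gene Mir17hg (ENSMUSG00000089726.2, 115042879 to 115046727). In order along the transcript, Mir17 (ENSMUSG00000065508.1) runs from 115043671 to 115043754 and Mir18 (ENSMUSG00000065403.1) from 115043851 to 115043946. Mir19a (ENSMUSG00000065416.1) follows from 115044000 to 115044081 and Mir20a (ENSMUSG00000065442.1) from 115044157 to 115044263. Mir19b-1 (ENSMUSG00000076256.1) runs from 115044305 to 115044391 and Mir92-1 (ENSMUSG00000076062.1) from 115044427 to 115044506. The gaps between neighbours are 96, 53, 75, 41 and 35 bases in that order. The hairpins are therefore packed closely, with no gap longer than the longest hairpin, Mir20a with 107 bases.

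Sense counts on microRNA genes came to 5097205 in replicate 1 and 4460836 in replicate 2, and a count pools both arms of its hairpin. Multimapping reads, which were left out of the gene counts, came to 74.6 and 76.5 per 100 sense counts. Levels are counts per 1000000 sense counts of a library (CPM). Intervals are 95% exact binomial intervals. They cover counting error only, since the reads carry no molecular identifiers in these files and need not be independent molecules. All 6 listed neuron markers had counts in both libraries, with summed levels of 12905 and 11579 CPM, of which Mir137 alone gave 9157 and 7199 CPM. Endothelial Mir126a reached 27475 and 29178 CPM, while the muscle, erythroid, leukocyte and pluripotency lists each summed to at most 842 CPM. Reads that fit several places are left out of these sums, so the lists do not rank the cell types against each other. Bulk counts cannot tell fewer cells of a type from less RNA per cell.

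The cluster was abundant, and its counts came almost wholly from 4 of its 6 hairpins. Together the 6 held 2.30% of the sense counts in replicate 1 (interval 2.29% to 2.31%) and 1.74% in replicate 2 (1.73% to 1.75%), or 2.02% ± 0.394 (SD, n = 2). Mir17, Mir20a, Mir18 and Mir92-1 were all among the first 102 genes in each library, while Mir19a and Mir19b-1 lay far below them. Reads that Mir19b-1 and Mir92-1 share with their X-linked copies are left out, so the cluster total misses an unknown number of reads. The opposite strand held 0 counts at every one of the 6 hairpins in both libraries.

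Mir17, which makes miR-17-5p, a strand that represses Cdkn1a and other brakes on the cell cycle, led the cluster. It had 68336 counts in replicate 1 and 44045 in replicate 2, which is 13407 and 9874 CPM, or 11640 ± 2498 CPM (SD, n = 2), and ranked 15 and 18 among all genes. Mir20a, which has the same seed and a near-identical strand, had 25971 and 17987 counts, or 5095 and 4032 CPM (4564 ± 752 CPM, SD, n = 2). Both were higher in replicate 1, and Mir17 lay above Mir20a in each library.

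Mir18, whose seed differs from that of Mir17 by a single base, had 17598 and 11682 counts, or 3452 and 2619 CPM (3036 ± 590 CPM, SD, n = 2). Mir92-1 had 5020 and 3766 counts, or 985 and 844 CPM (915 ± 99.4 CPM, SD, n = 2). Mir92-1 makes miR-92a-3p, a strand of a seed family that also includes miR-25 and miR-363. It ranked 99 and 102 among all genes although reads that fit Mir92-2 as well were not counted.

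The miR-19 hairpins were the lowest of the cluster. Mir19a had 203 and 172 counts, or 39.8 CPM (interval 34.5 to 45.7) and 38.6 CPM (33.0 to 44.8), with a mean of 39.2 ± 0.897 CPM (SD, n = 2). Mir19b-1 had 24 and 28 counts, or 4.71 CPM (3.02 to 7.01) and 6.28 CPM (4.17 to 9.07), with a mean of 5.49 ± 1.11 CPM (SD, n = 2). For both hairpins the intervals of the 2 libraries overlapped. Mir19b-1 shares its mature strand with Mir19b-2, but Mir19a has no exact copy in the table and differs by 1 base from the strand of 2 other hairpins. How the aligner treated reads that fit another locus with 1 mismatch is not given in the sources used here.

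**Figure D1:**
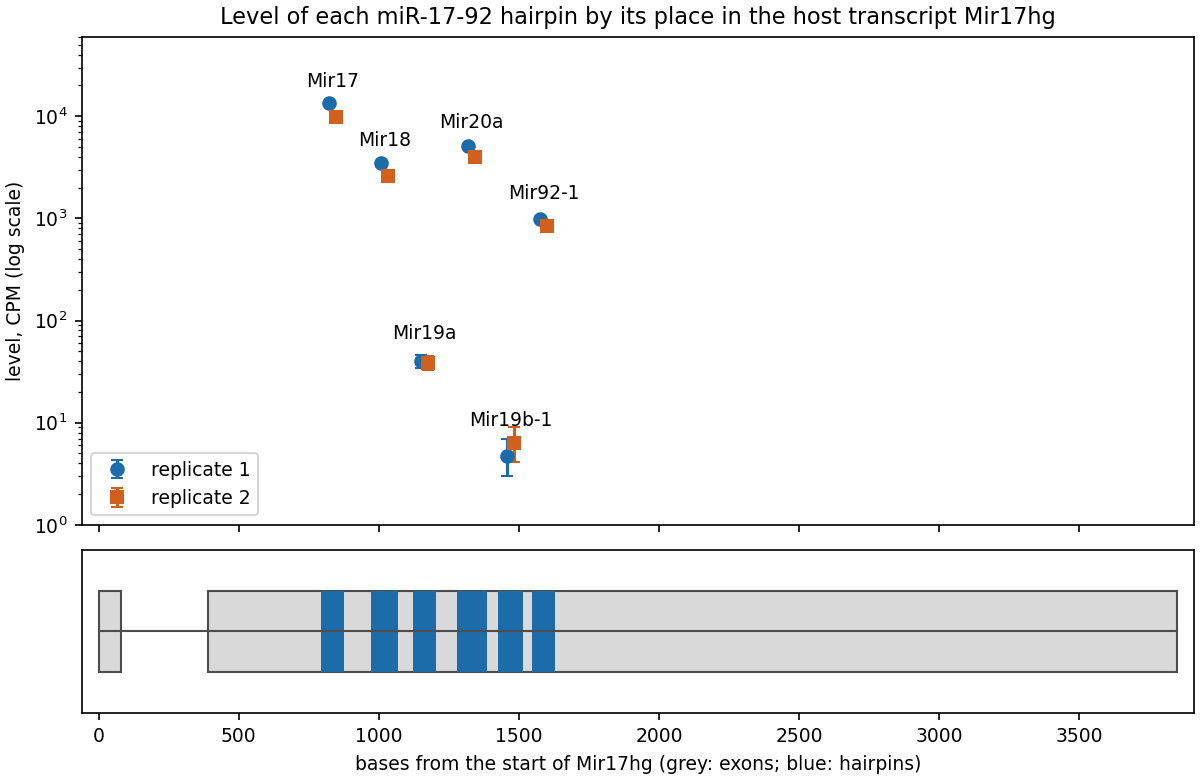
Level of each hairpin in CPM (log axis) by its distance in bases from the start of Mir17hg, above a map to scale of the exons (grey) and hairpins (blue). Circles are replicate 1, squares replicate 2 and bars 95% exact binomial intervals. Mir17 is highest at 11640 CPM on average, and Mir19a and Mir19b-1, which lie on either side of Mir20a, are lowest by these counts. The counts of Mir19b-1 and Mir92-1 leave out reads of a shared strand.

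The hairpins ranked in the same order in both libraries, from Mir17 through Mir20a, Mir18, Mir92-1 and Mir19a to Mir19b-1. Each of the 15 pairs was called different, which meant that the log2 ratio pointed the same way in each library and that its mean exceeded 2 SD. With 2 libraries an exact sign-flip test reaches no p under 0.5, so none is given for these ratios. The rule covers only the spread between these libraries and not a counting bias that both share. An SD from 2 values is itself poorly known. The 15 pairs come from 6 hairpins, so they are not 15 separate results.

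Between neighbours in this order, Mir17 exceeded Mir20a 2.54-fold, with log2 ratios of 1.40 and 1.29 in replicates 1 and 2 (1.34 ± 0.07, SD, n = 2). Mir20a exceeded Mir18 1.51-fold, the closest pair, with 0.56 and 0.62 (0.59 ± 0.04). Mir18 exceeded Mir92-1 3.30-fold, with 1.81 and 1.63 (1.72 ± 0.12). These steps are small beside the next one.

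Mir92-1 exceeded Mir19a 23.3-fold, with log2 ratios of 4.63 and 4.45 (4.54 ± 0.12, SD, n = 2). Mir19a exceeded Mir19b-1 7.21-fold, with 3.08 and 2.62 (2.85 ± 0.33). From Mir17 to Mir19b-1 the log2 ratio was 11.48 and 10.62 (11.05 ± 0.61), a 2116-fold difference between hairpins of 1 transcript. Each ratio that involves Mir92-1 or Mir19b-1 rests in part on counts that leave out reads of a shared strand.

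As shares of the cluster, Mir17 took 58.3% of its counts in replicate 1 (interval 58.0% to 58.6%) and 56.7% in replicate 2 (56.4% to 57.0%). Mir20a took 22.2% and 23.2%, Mir18 15.02% and 15.04% and Mir92-1 4.29% and 4.85%. Mir19a took 0.173% and 0.221%, and Mir19b-1 0.0205% and 0.0360%. The make-up of the cluster thus moved by at most 1.63 percentage points between libraries, for Mir17. Grouped by the seed of the strand usually loaded, Mir17 and Mir20a held 80.2% ± 0.455 of the cluster's counts (SD, n = 2). Mir18 held 15.03% ± 0.0121, Mir92-1 4.57% ± 0.398 and the miR-19 hairpins 0.226% ± 0.0450. A count pools both arms, so these are shares of hairpins and not of seeds. Reads that Mir19b-1 and Mir92-1 share with their X-linked copies are left out, so all shares of the cluster are uncertain.

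Levels neither rose nor fell steadily along the transcript, and the lowest hairpins, Mir19a and Mir19b-1, lie on either side of Mir20a. The predicted folding energy of the hairpins ranged from -38.7 kcal/mol for Mir19a to -29.2 kcal/mol for Mir18. Mir17 and Mir20a, at -36.7 and -38.6 kcal/mol, lay within the range of Mir19a and the other hairpins. The mature strands ranged in GC content from 34.8% for miR-19a-3p to 57.1% for miR-92a-3p, and miR-19b-3p and miR-20a-5p had 39.1% each. Over 6 hairpins these are descriptions, and the part of folding or base composition in the counts was not tested.

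The paralogue clusters, miR-106b-25 on chromosome 5 and miR-106a-363 on the X chromosome, share seeds with miR-17-92. The miR-106b-25 cluster has the miR-17 and miR-92 seeds, and the X-linked cluster has those and the miR-18 and miR-19 seeds. The levels of both clusters are given for comparison within each seed family. Among 5′ strands of the miR-17 seed, miR-106a-5p differs from miR-17-5p by U10A alone, miR-20b-5p by U10C and C12U, and miR-93-5p by U10G, A11U, C12U and A13C. These changes lie outside the seed. The miR-17 seed strands of the paralogue clusters are shown, with the seed in capitals, because their hairpins are compared with Mir17 and Mir20a.
miR-106b-5p: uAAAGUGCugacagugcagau
miR-93-5p: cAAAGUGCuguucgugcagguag
miR-106a-5p: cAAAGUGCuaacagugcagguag
miR-20b-5p: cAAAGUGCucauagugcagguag

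In the miR-17 seed family, Mir17 and Mir20a together exceeded Mir106b and Mir93 only slightly, by log2 ratios of 0.47 and 0.36 in replicates 1 and 2 (0.41 ± 0.08, SD, n = 2, or 1.33-fold). Mir93 had 6927 and 5434 CPM and Mir106b 6474 and 5434 CPM, so each lay between Mir17 and Mir20a. Mir106a had 161 and 108 CPM and Mir20b 130 and 93.9 CPM, and against this pair the ratio was 5.99 and 6.10 (6.05 ± 0.08, or 66.1-fold). All 7 hairpins of the RefSeq table that carry this seed were counted, and Mir6383, the remaining one, had 0 counts in both libraries, which allows up to 0.589 and 0.673 CPM. Mir17 and Mir20a supplied 57.5% of the family's counts in replicate 1 and 55.7% in replicate 2 (56.6% ± 1.27, SD, n = 2).

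Counts of hairpins with the miR-18 seed came nearly all from the miR-17-92 cluster. Mir18b had 126 and 77 counts, or 24.7 and 17.3 CPM, and Mir18 exceeded it by log2 ratios of 7.13 and 7.25 (7.19 ± 0.08, SD, n = 2). Mir18 supplied 99.3% ± 0.0397 of the counts of hairpins with this seed, both arms pooled. Counted from the 5′ end of miR-18a-5p, miR-18b-5p differs by A18U and A20U, so the strands are told apart only near their 3′ end.

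The miR-19 hairpin was low in the X-linked cluster too. Mir19b-2 had 5 and 11 counts, or 0.981 CPM (interval 0.319 to 2.29) and 2.47 CPM (1.23 to 4.41), the lowest of its cluster in both libraries. Mir19a and Mir19b-1 together exceeded it by log2 ratios of 5.50 (4.26 to 7.14) and 4.18 (3.31 to 5.21). All 3 hairpins with this seed summed to 45.5 and 47.3 CPM, against 32194 and 24976 CPM for the hairpins with the miR-17 seed. Since 2 of the 3 share 1 mature strand, the sum leaves out an unknown number of miR-19b-3p reads.

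For the miR-92 seed the miR-17-92 cluster was not the main counted source. Of the counts of hairpins with this seed, both arms pooled, Mir92-1 supplied 19.99% in replicate 1 (interval 19.5% to 20.5%). In replicate 2 it supplied 19.1% (18.5% to 19.6%). The separate gene Mir92b, at 3228 and 2956 CPM, supplied more. Within the paralogue clusters Mir92-1 was the highest hairpin of its seed. It exceeded Mir25 by log2 ratios of 1.80 and 1.78 (1.79 ± 0.01, SD, n = 2), Mir363 by 2.17 and 2.09 (2.13 ± 0.06) and Mir92-2 by 4.47 and 4.52 (4.50 ± 0.03). Mir32 had 168 and 146 CPM, and Mir367 had 0 counts in both libraries. Reads inside the run shared by Mir92-1 and Mir92-2 are in neither count. The share of Mir92-1, its intervals and its ratios therefore leave out an unknown number of reads.

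**Figure D2:**
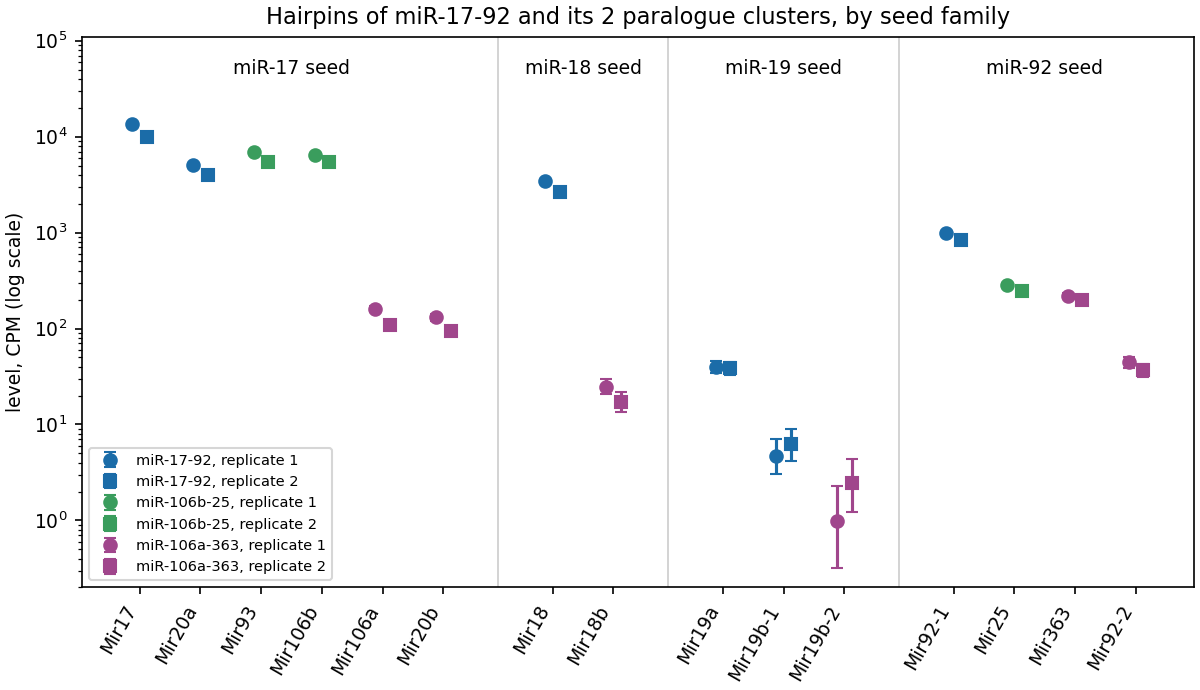
Level in CPM (log axis) of each hairpin of miR-17-92 and its paralogue clusters, grouped by seed. Circles are replicate 1, squares replicate 2, colours the clusters and bars 95% exact binomial intervals. Mir106b and Mir93 lie between Mir17 and Mir20a, while the 3 miR-19 hairpins lie below 50 CPM.

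The paralogue clusters also gave unequal hairpins. In miR-106b-25, Mir93 and Mir106b did not pass the 2 SD rule, with log2 ratios of 0.10 and 0.00 (0.05 ± 0.07, SD, n = 2), while Mir106b exceeded Mir25 by 4.49 ± 0.03. In miR-106a-363 the order was Mir363, Mir106a, Mir20b, Mir92-2, Mir18b and Mir19b-2 in both libraries. The highest single hairpin was Mir17 in miR-17-92 and Mir363, of the miR-92 seed, in the X-linked cluster, where it exceeded Mir106a by log2 ratios of 0.45 and 0.87 (0.66 ± 0.30). In both 6-hairpin clusters the miR-19b hairpin was the lowest by these counts. Both miR-19b hairpins leave out reads of the strand they share, and the part of this in their low counts was not tested.

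Other groups of neighbouring hairpins gave a scale for the spread. Hairpins on the same strand with neighbours within 10000 bases were grouped, and 15 other groups had at least 3 hairpins with a summed count of 10 or more. The log2 ratio of the highest to the lowest hairpin in these groups had a median of 6.25 and ran from 1.69 to 15.21. Groups led by Mir487b with 31 hairpins and by Mir127 with 11 were wider than miR-17-92 in both libraries. The group led by Mir322, with 7 hairpins, gave 11.06 and 11.71 against 11.48 and 10.62 for miR-17-92, so their order turned between the libraries. With neighbours within 1000 bases, none of the 15 other groups had a wider mean over both libraries, the widest at 10.87 against 11.05 for miR-17-92. The ratio for miR-17-92 is that of Mir17 to Mir19b-1, whose counts leave out an unknown number of reads of a shared strand. The width of miR-17-92 and its rank in both groupings are therefore uncertain. A group with more hairpins has more chance of a wide ratio, and hairpins without enough counts were left out. The grouping was chosen after the values were seen, so the comparison of groups is a description.

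**Figure D3:**
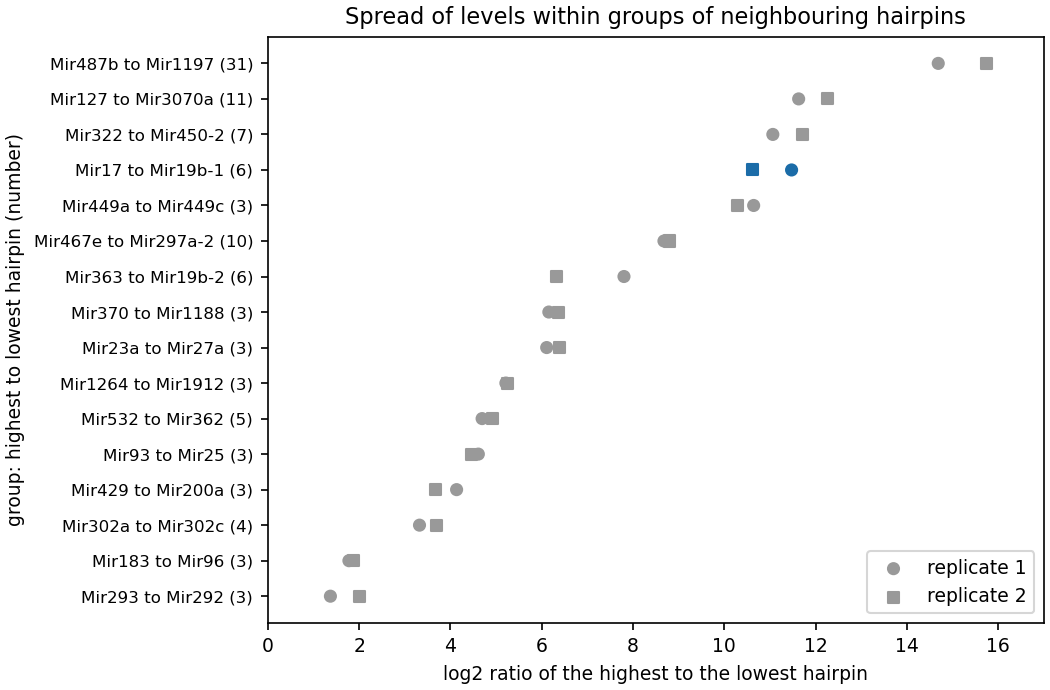
Log2 ratio of the highest to the lowest hairpin in each group of neighbouring hairpins, with the number of hairpins in brackets. Circles are replicate 1 and squares replicate 2, with miR-17-92 in blue. miR-17-92 lies at 11.48 and 10.62, and its lowest hairpin is Mir19b-1, whose counts leave out reads of a shared strand.

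The libraries differed in the level of the cluster by more than counting error. After TMM scaling the 6 hairpins together were 1.26-fold higher in replicate 1, a log2 ratio of replicate 2 over replicate 1 of -0.34 (interval -0.35 to -0.32). An exact two-sided binomial test of the reads of both libraries was run on the 401 genes whose counts summed to 20 or more, and p-values were adjusted over all of them by Benjamini-Hochberg. It compares these libraries and no conditions, and its p-values allow for counting noise only.

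In this test 4 of 6 hairpins were higher in replicate 1 and 0 in replicate 2. Of all genes tested 46.4% were called, 24.4% as higher in replicate 1 and 21.9% as higher in replicate 2. The median log2 ratio was -0.22 over the 6 hairpins and 0.00 over all genes tested. Hairpins of 1 transcript are not independent of each other.

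Mir17 had the largest difference of the called hairpins, with a log2 ratio of replicate 2 over replicate 1 of -0.38 (interval -0.39 to -0.36), or 1.30-fold higher in replicate 1. Mir18 gave -0.33 (-0.37 to -0.30), Mir20a -0.27 (-0.30 to -0.25) and Mir92-1 -0.16 (-0.22 to -0.10), with an adjusted p of 1.70e-06 for Mir92-1 by the exact binomial test. The 4 abundant hairpins thus went the same way. The intervals of Mir17, Mir20a and Mir92-1 do not overlap, but they cover counting error only. Whether these hairpins differed between the libraries by unequal amounts was not tested.

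Mir19a gave 0.02 (interval -0.28 to 0.32; exact binomial test, adjusted p = 0.960) and Mir19b-1 0.48 (-0.36 to 1.33; adjusted p = 0.399 by the same exact test). Neither passed, and the interval of Mir19b-1 spans the ratio of each other member except Mir17, so at 24 and 28 counts a difference like that of Mir18 was not detectable. Of the 9 paralogue hairpins 8 were tested, of which 5 were higher in replicate 1 and 0 in replicate 2. Mir106a gave -0.50, Mir20b -0.41, Mir93 -0.29, Mir106b -0.19 and Mir25 -0.14.

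The call rests on the error model. edgeR's exact test between the libraries, with the biological coefficient of variation (BCV) set to 0.1, called 1.75% of the 401 genes and 0 of the 6 hairpins. The lowest adjusted p among the 6 was 0.695, for Mir17. An unadjusted p under 0.05 by the same edgeR test was reached by 34 of the 401 genes and by 0 of the 6 hairpins. The summed level of skeletal muscle markers was also lower in replicate 2, at 24.9 CPM against 375 CPM in replicate 1. After TMM scaling this was a log2 ratio of replicate 2 over replicate 1 of -3.85, against -0.34 for the cluster. Of 5 counted muscle markers 3 were at 0 in both libraries, Mir1a-1, Mir133a-1 and Mir133a-2. Reads that fit more than 1 place were given to no gene, so these 0 counts do not show that the strands were absent. Pluripotency markers went from 842 to 674 CPM, a log2 ratio of -0.26, with Mir367 at 0. Erythroid, leukocyte and neuron markers had log2 ratios between -0.09 and 0.00, with Mir126a at 0.15. The part of these tissues in the result was not tested.

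**Figure D4:**
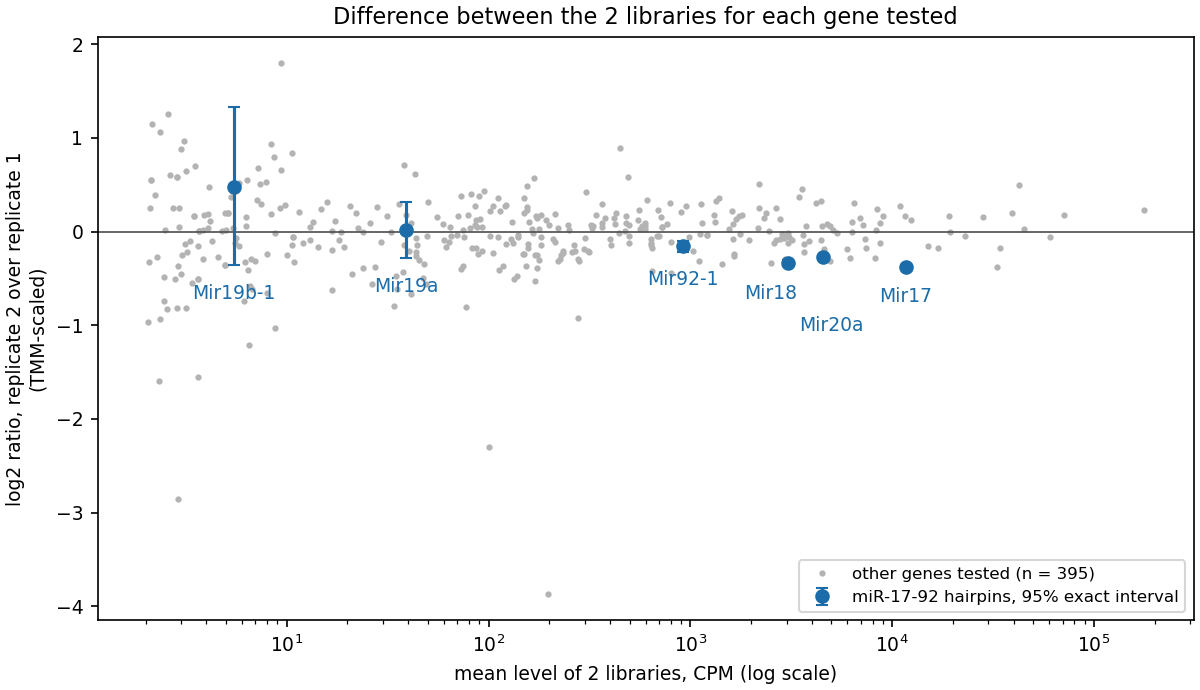
Log2 ratio of replicate 2 over replicate 1 after TMM scaling by mean level in CPM (log axis) for the 401 genes tested. Grey points are other genes, blue points the miR-17-92 hairpins with 95% exact binomial intervals. Mir17, Mir18, Mir20a and Mir92-1 lie below 0, and the intervals of Mir19a and Mir19b-1 include 0.

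The genes closest in level to the highest and lowest members over both libraries were named by their distance on the log2(CPM + 1) scale. Nearest to Mir17 were Mir127 (0.39), Mir181c (0.39) and Mir369 (0.47). Mir127 had 11196 and 12037 CPM, so its CPM was higher in replicate 2, where that of Mir17 was lower. Nearest to Mir19b-1 were Mir215 (0.09), Mir196a-2 (0.10) and Mir26a-1 (0.20), with 24 to 30 counts in each library. With 2 libraries such likeness describes the level alone.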

How the data were processed

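The authors deposited raw read counts per gene, made on mm10 with GENCODE M4 per the text deposited with each sample. No aligner or counter is named there. Each table opens with 4 summary lines, which name no gene and were left out, and has a count column for both strands and 1 for each strand. The first single-strand column was used, which held 97.6% of the assigned counts in each library. Identifiers were matched to GENCODE M21, on the same assembly, for 1894 of 1973 genes.

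CPM, log2 ratios and exact binomial intervals were computed from these counts. TMM factors were 1.02 and 0.978. On simulated counts of 400 genes with counting noise only, the binomial test called 61.2% of genes changed 1.25-fold, 89.4% changed 2-fold, 100% changed 4-fold and 6 of 203 unchanged. The labels call the pools biological replicates and say no more.

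The text names the 6 members, 9 paralogues, and the 3 genes nearest in level to the highest and to the lowest member. Mir92b, Mir32, Mir367 and Mir6383 come from the seed search. Mir137, Mir126a, Mir1a-1, Mir133a-1 and Mir133a-2 come from the marker lists, as does Mir367, and Mir99a is the most abundant gene. Leaders of other groups of hairpins were named after their values were seen. The members and lists were chosen with earlier results of these data known. Alternatives were unstranded counts, other totals, scalings and count minimums, an added count, single libraries and edgeR. Tools were RNAfold 2.7.2, Python 3.11.15, scipy 1.17.1, R 4.3.3, DESeq2 1.42.0 and edgeR 4.0.16.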

Additional observations from a re-analysis of the deposited data

How the results depend on the processing

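With multimapping reads in the total, the share of the cluster was 1.15% and the levels were 6637 CPM for Mir17, 1731 for Mir18, 22.3 for Mir19a, 2602 for Mir20a, 3.13 for Mir19b-1 and 521 for Mir92-1. With the total taken without Mir99a, the most abundant gene, the share was 2.45%, Mir18 3681 CPM, Mir19a 47.6, Mir20a 5536, Mir19b-1 6.68 and Mir92-1 1110. Mir19a was 38.2 CPM with unstranded counts, whose total is larger. These changes follow from the total used, and they leave ratios within the cluster as they are. TMM and DESeq2 scaling moved no level by more than 1 SD.

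Without replicate 1 and without replicate 2 the share was 1.74% and 2.30%. Under the same omissions Mir17 ranged from 9874 to 13407 CPM, Mir18 from 2619 to 3452, Mir19a from 38.6 to 39.8, Mir20a from 4032 to 5095, Mir19b-1 from 4.71 to 6.28 and Mir92-1 from 844 to 985. Without Mir19b-1 and Mir92-1, the hairpins with a copy elsewhere, Mir17 took 60.3%, Mir18 15.8% and Mir20a 23.8% of the cluster. All 15 pairs were called different with unstranded counts and with 1 count added to each hairpin.

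The exact binomial test called 4 hairpins with unstranded counts and under each scaling and count minimum tried, with 179 to 195 genes called. With no minimum, 179 of 737 genes tested were called. At a summed count of at least 100, it was 181 of 304, so genes with more counts were called more often. At a summed count of at least 100 only 5 of the 6 were tested, without Mir19b-1. With plain totals, 131 genes were higher in replicate 1 and 62 in replicate 2, against 98 and 88 with TMM scaling. edgeR's exact test called 7 genes and 0 of the 6 hairpins at a BCV of 0.1. With the BCV estimated from the data themselves, 16.2%, an alternative added after the data were seen, it called 3 genes and 0 hairpins, with 11 genes and 0 hairpins at an unadjusted p under 0.05. This sets the difference between the libraries against itself, so that few calls could be made, and it says nothing more about the hairpins. The counts of Mir19b-1 and Mir19b-2 limit what can be said of the miR-19 seed. No paired analysis was possible because the series has 1 group.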
